A study of Mus musculus with 2 samples.

Results

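The genes described here are 45 genes of mitosis, covering entry into division, the kinetochore, the spindle checkpoint, the spindle and cytokinesis. They were chosen by symbol and found by Ensembl identifier, 45 of 45, among the 43346 Ensembl gene rows of each deposited table. The rule uses no measured value, but the members were chosen with earlier results of these data known. The study measured polyadenylated RNA in G1E-ER4, an immortalised mouse line made from Gata1-null erythroid precursors. The line carries the transcription factor GATA-1 fused to the hormone-binding domain of the oestrogen receptor, so that an oestrogen starts erythroid maturation. Both libraries came from cells held for 24 h in 10 nM 17beta-estradiol and are numbered as biological replicates 1 and 2. They are the only group, and no untreated culture was analysed here, so the values describe 1 state and no condition was compared with another. The labels do not say whether the replicates were separate inductions.

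Replicate 1 held 20412826 expected counts and replicate 2 held 18564086. Expected counts are estimates in which a read that fits several transcripts is shared among them. Levels are given in TPM, a relative abundance scaled to a fixed total per library, which divides by transcript length and can be compared between genes. As a check of the labelled cell type, 10 of 10 erythroid markers reached 1 TPM in both libraries, and their levels summed to 110074 and 127155 TPM. The globin gene Hbb-bs alone had a mean of 65450 TPM. Gata1 is among the 10, but the line carries a GATA-1 fusion, so its detection does not bear on the cell type. Of 12 markers of other blood cells, 3 reached 1 TPM in both, namely the platelet gene Pf4 with 19.3 and 20.7 TPM, Itga2b and Ptprcap. The 12 together summed to 26.0 and 28.3 TPM, and the basophil, neutrophil and T cell genes Mcpt8, Elane and Cd3e were listed at 0.

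Division begins when the kinase CDK1 and its cyclin B partners are switched on by CDC25 phosphatases, with help from Polo and Aurora kinases. Chromosomes then attach to spindle microtubules through kinetochores, which are built on centromeric chromatin that carries the histone variant CENP-A. Until every kinetochore is attached, the spindle checkpoint holds back CDC20, the activator of the anaphase-promoting complex, and this keeps securin and cyclin B from being destroyed. Many of these genes are transcribed late in the cell cycle through 2 promoter elements. One is the CHR, bound by the MuvB complexes, and the other is the CCAAT box, bound by NF-Y. Erythroid precursors go on dividing while they mature and leave the cell cycle near the end of that process.

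Promoter sequences are shown because both elements were found in most of the promoters examined. RefSeq promoters (GRCm38.p6), from 250 bases before to 50 bases after the annotated start, were available for 38 of the 45 genes, as 43 promoters. Aurkb, Incenp, Cdc25c, Kif20a, Tpx2, Foxm1 and Spc24 had no entry. The 5 stretches below are the last 130 bases before the start, from the 5 most abundant members that had a single listed promoter and both elements within those bases. They lie at chr11:99024190-99024319 on the minus strand for Top2a, chr4:118437344-118437473 on the minus strand for Cdc20, chr10:69352913-69353042 on the minus strand for Cdk1, chr8:116921610-116921739 on the plus strand for Cenpn and chr15:102296163-102296292 on the plus strand for Espl1. Each is written 5′ to 3′ along the gene, and capitals mark letters that match the CHR core (TTTGAA, its reverse complement TTCAAA, or TTCGAA) or the CCAAT box (CCAAT or its reverse complement ATTGG).
Top2a: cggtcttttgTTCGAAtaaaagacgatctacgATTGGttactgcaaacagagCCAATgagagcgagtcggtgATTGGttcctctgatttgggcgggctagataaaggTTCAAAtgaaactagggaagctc
Cdc20: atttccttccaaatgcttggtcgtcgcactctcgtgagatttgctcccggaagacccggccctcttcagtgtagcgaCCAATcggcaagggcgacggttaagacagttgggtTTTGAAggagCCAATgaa
Cdk1: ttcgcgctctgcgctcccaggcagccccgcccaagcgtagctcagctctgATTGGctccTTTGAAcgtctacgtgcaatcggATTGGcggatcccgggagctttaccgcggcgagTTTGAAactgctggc
Cenpn: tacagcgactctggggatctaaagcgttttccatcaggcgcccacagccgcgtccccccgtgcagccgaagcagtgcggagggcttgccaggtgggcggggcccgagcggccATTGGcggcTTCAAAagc
Espl1: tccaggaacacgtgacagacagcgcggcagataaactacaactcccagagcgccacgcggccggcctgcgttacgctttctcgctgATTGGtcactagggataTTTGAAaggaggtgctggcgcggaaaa
In the Cdc20, Cenpn and Espl1 stretches 1 CHR core lay 27 or fewer bases from the start, with a CCAAT box upstream of it. Cdk1 and Top2a each held 2 CHR cores in the stretch, and Top2a held 3 CCAAT boxes.

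Across the 38 genes, 30 (78.9%) had a CHR core on either strand in at least 1 promoter, against 21.7% of the 27025 genes in the promoter table. The CCAAT box was present in 29 of 38 (76.3%), against 41.1% of all genes. Both elements occurred in 26 of 38 (68.4%), against 8.61% of all genes. A CHR core and a CCAAT box can share at most 1 end base. Many matches stood close to the start, since 29 of 43 member promoters (67.4%) had a CHR core within 50 bases of the start, and 5.31% of all 32851 promoters did. At least 2 CCAAT boxes were found in 20 of the 43 (46.5%) and in 11.7% of all promoters. Counts by promoter take the same letters more than once where the promoters of a gene overlap, as in Bub3, Ect2 and Prc1. Ndc80, Anln, Kif2c and Kif20b had a CHR core without a CCAAT box, and Cenpe, Cenph and Cenpk had a CCAAT box without a CHR core. Neither set of letters was in the window of Birc5, Mad2l1, Nuf2, Nusap1 or Pttg1. The median level was 78.7 TPM over the 26 genes with both elements and 39.9 TPM over the 12 others, and the levels of these sets overlapped widely, from 19.9 to 328 TPM and from 9.36 to 206 TPM. A match of letters is a description and not a bound site.

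**Figure D1:**
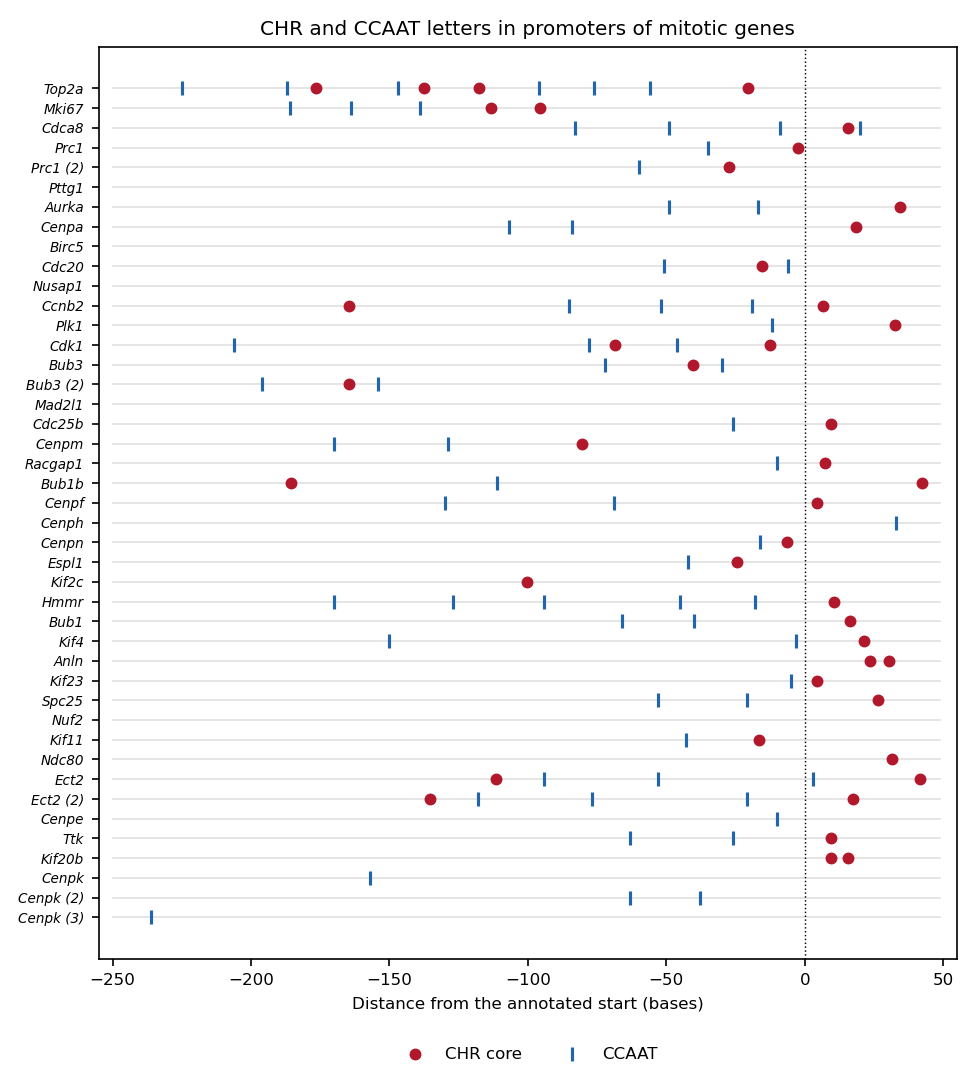
Positions of the CHR core (circles) and the CCAAT box (bars) in the 43 RefSeq promoters of 38 mitotic genes, ordered from the highest to the lowest mean TPM; the x axis is the distance in bases from the annotated start, and a number in brackets marks a further promoter of the same gene. Most circles stand close to the dotted start line, and 31 of 44 CHR matches lie within 50 bases of it. A match in overlapping promoters of the same gene is counted in each.

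A gene counted as detected when neither library had under 1 TPM. All 45 genes met this, as did 41.2% of 21461 nuclear protein-coding genes. A stricter floor of 10 TPM in each library was met by 44 of 45, and the share of all protein-coding genes at this floor was not counted. The level reached 100 TPM in both libraries for 17 of 45, against 5.47% of protein-coding genes. The median member had 59.96 TPM (quartiles 35.4 and 140.2 TPM), while the median was 20.7 TPM over the 8840 detected protein-coding genes and 0.08 TPM over all 21461. Above that median of detected genes lay 41 of 45 members. Together the 45 genes held 0.456% of all TPM in replicate 1 and 0.445% in replicate 2. Measured in reads they held 0.972% and 0.910% of expected counts, because several of them make long mRNAs. Mki67 alone, with a transcript of 10075 bases, took 25.3% of the group's reads but 6.69% of its TPM. In bulk RNA, fewer dividing cells and less mRNA per dividing cell cannot be told apart, and the share of cells in mitosis was not measured.

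**Figure D2:**
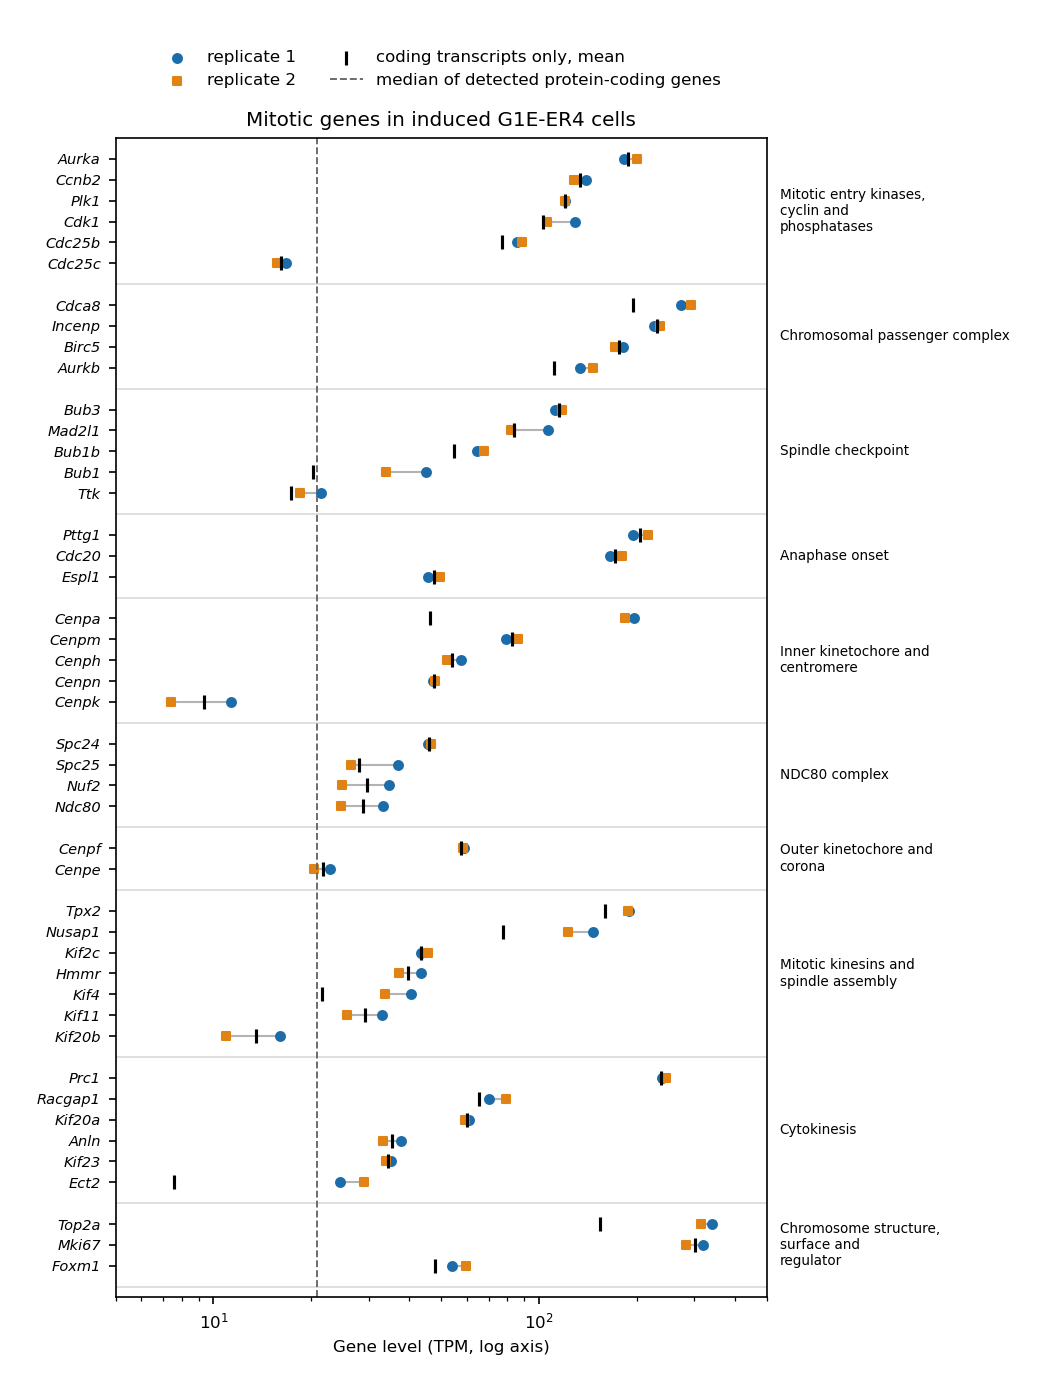
Level of each of the 45 mitotic genes in TPM on a log axis, by role, with replicate 1 as circles and replicate 2 as squares; the short black bar is the mean over both libraries of coding transcripts alone, and the dashed line is the median of detected protein-coding genes (20.7 TPM). Levels span from Cenpk to Top2a, and the black bar stands far to the left of the points for Cenpa, Ect2 and Top2a.

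Among the genes of mitotic entry the median level was 119 TPM. Aurka, the kinase of centrosomes and spindle poles, was the highest, with 182.7 and 200.1 TPM in replicates 1 and 2 (191 ± 12.3 TPM, SD, n = 2). Cdc25c, a phosphatase that activates CDK1, was the lowest with 16.7 and 15.6 TPM. Its paralogue Cdc25b had 85.7 and 88.8 TPM, so that Cdc25b exceeded Cdc25c by 2.43 ± 0.11 on the log2 scale (SD, n = 2), about 5.4-fold. Cdk1 mRNA had 129 and 106 TPM, and that of its partner Ccnb2 had 139.8 and 127.7 TPM. Cdk1 was thus below Ccnb2 in both libraries, by a log2 ratio of -0.19 ± 0.11, which was -1.49 when all reads were set against the longest coding transcript. Plk1, the Polo kinase, differed least of the 3 kinases, with 120.3 and 120.6 TPM.

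The other B-type cyclin, Ccnb1, is not one of the 45 but shares the CDK1 partner. It had 271 and 249.6 TPM, a log2 ratio to Ccnb2 of 0.96 ± 0.01. That order turned, to -0.92, when only coding transcripts were summed, meaning those annotated as protein-coding. Only 73.6% of the 36-base stretches of Ccnb1 transcripts were unique to it, the largest sharing being with the pseudogene Ccnb1-ps, so which B-type cyclin mRNA was the more abundant is uncertain. Cdk1 against Ccnb1 likewise turned, from -1.15 ± 0.12 to 0.54.

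The chromosomal passenger complex, which corrects wrong attachments and later marks the division plane, had 4 of 4 subunits at 100 TPM or more in both libraries, and a median of 203 TPM. Its scaffold Incenp had 225 and 235 TPM. Cdca8, which encodes borealin, had 274 and 292 TPM. Birc5, which encodes survivin, had 181 and 172 TPM, and the kinase Aurkb had 134 and 146 TPM. On the log2 scale Aurkb was below Incenp by -0.72 ± 0.05 and Birc5 by -0.38 ± 0.10, in both libraries each, and with all reads set against the longest coding transcript the value for Birc5 was -1.94. Cdca8 was above Incenp by 0.30 ± 0.02, but below it, by -0.25, once transcripts not annotated as protein-coding were left out. Aurka exceeded Aurkb by 0.45 with an SD of 0.0039, a value that hardly moved between the libraries but was 0.76 over coding transcripts alone.

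Spindle checkpoint genes spread more widely, with a median of 66.1 TPM. Bub3, whose product brings BUB1 and BUBR1 to the kinetochore, was the highest, with 112 and 118 TPM. Mad2l1, which encodes the MAD2 protein that captures CDC20, had 106.7 and 82.0 TPM. Bub1b, the gene of BUBR1, had 64.5 and 67.7 TPM, Bub1 had 45.04 and 33.94 TPM, and the kinase Ttk (MPS1) had 21.3 and 18.5 TPM. Bub3 stood above Bub1b by 0.80 ± 0.01 on the log2 scale, whereas its ratio to Bub1 varied, at 1.55 ± 0.34, because Bub1 differed between the libraries. Over coding transcripts alone Bub1 had 24.39 and 15.92 TPM, and Bub3 stood above Bub1b by 1.06 and above Bub1 by 2.54. The checkpoint's target Cdc20 was more abundant than Mad2l1 in both libraries, with a log2 ratio of Mad2l1 to Cdc20 of -0.88 ± 0.36.

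Of the genes of anaphase onset, Cdc20 had 165 and 180.1 TPM and Pttg1, which encodes securin, had 195 and 216 TPM. Espl1, which encodes the protease separase that securin inhibits, had 45.5 and 49.6 TPM. Per transcript length, Pttg1 exceeded Espl1 by 2.11 ± 0.02 on the log2 scale, or by 0.77 with the longest coding lengths. In reads the order was opposite, at -1.23 ± 0.02, since the Espl1 transcript has 6630 bases and the Pttg1 transcripts have 683.5 on average. Cdc20 was also above Fzr1, the late-mitotic activator of the same complex, by 0.83 ± 0.03 in TPM and by 0.10 in reads. Its own level is uncertain, because only 79.2% of its 36-base stretches were unique and most of the shared ones also fit Gm7856.

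The inner kinetochore held both a high and the lowest member. Cenpa, the centromeric histone H3 variant, had 195 and 183.5 TPM. Cenpm had 79.4 and 86.1 TPM, Cenph 57.7 and 52.1 TPM, and Cenpn, whose product binds CENP-A nucleosomes, 47.3 and 47.9 TPM. Cenpk (ENSMUSG00000021714, chr13:104228611-104252392, plus strand) had 11.3 and 7.39 TPM and was the only member under 10 TPM, although over coding transcripts alone Ect2 was under it too. CENP-K sits with CENP-H in 1 subcomplex, yet the log2 ratio of their mRNAs was -2.58 ± 0.33, with Cenph about 6.0-fold higher. That gap was as wide in reads, at -2.59 ± 0.32.

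The 4 genes of the NDC80 complex, the rod that grips microtubules, lay below the members' median but above that of detected protein-coding genes. Of these, Ndc80, Nuf2 and Spc25 were close to each other. Ndc80 had 33.1 and 24.7 TPM, Nuf2 34.6 and 24.9 TPM, and Spc25 36.9 and 26.5 TPM. Spc24 had 45.5 and 46.5 TPM. In replicate 1 the highest and lowest of them differed by a log2 ratio of 0.46 and in replicate 2 by 0.91, both times Spc24 over Ndc80. The log2 ratio of Nuf2 to Ndc80 was 0.04 ± 0.04, no larger than its SD, and that of Spc25 to Ndc80 was 0.13 ± 0.04. Neither direction held under every way of counting, nor did that of Spc24 to Ndc80, which was 0.69 ± 0.32 in TPM and -0.03 in reads. Spc24 was the only one of the 4 that was not lower in replicate 2, and its GC content was 52.2%, against 41.9 to 44.1% in the other subunits.

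At the outer kinetochore, the kinesin Cenpe had 22.9 and 20.4 TPM. Cenpf, a large coiled-coil protein of the corona, had 58.7 and 58.4 TPM. The Cenpf value rests on a short transcript. Cenpf-202, of 358 bases, was assigned 66.3% and 72.8% of the gene's TPM from 202 and 201 expected counts, while Cenpf-204, of 11130 bases, was assigned 3383 and 2399 counts and only 19.0 and 14.8 TPM. With all reads set against the long coding transcript, Cenpf came to 18.2 TPM, and its order with Cenpe turned from -1.44 ± 0.11 to 0.26 on the log2 scale of Cenpe to Cenpf.

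Kinesins and spindle assembly factors had a median of 40.3 TPM. Tpx2, which activates Aurora A on microtubules, was the highest with 188.5 and 187.5 TPM. Its log2 ratio to Aurka lay on either side of 0 in the libraries, so neither was higher in both. Nusap1, a microtubule-bundling protein, had 146.7 and 122.7 TPM. Of this, the non-coding Nusap1-203, of 557 bases, was assigned 47.1% and 36.9% from 579 and 345 expected counts. Over coding transcripts alone Nusap1 had 77.6 and 77.4 TPM. The motor genes were lower, with Kif2c, a microtubule depolymerase, at 43.3 and 45.5 TPM, Kif4, a chromosome-arm kinesin, at 40.5 and 33.5 TPM, and Kif11, the motor that separates spindle poles, at 32.8 and 25.6 TPM. Over coding transcripts alone Kif4 had 23.2 and 19.75 TPM. Kif20b was the lowest with 16.01 and 10.95 TPM. Hmmr, a spindle-associated protein, had 43.4 and 37.1 TPM.

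Cytokinesis genes had a median of 47.7 TPM and 1 clear top member. Prc1, which bundles the antiparallel microtubules of the central spindle, had 239 and 246 TPM. It exceeded Kif4, the motor it recruits there, by 2.72 ± 0.22 on the log2 scale, and by 1.55 in reads. Racgap1 had 70.0 and 79.2 TPM and Kif23 had 35.1 and 33.8 TPM. These genes encode the partners of the centralspindlin complex, and Kif23 was lower by a log2 ratio of -1.11 ± 0.16. Ect2, which centralspindlin recruits to start furrowing, was the lowest with 24.5 and 28.9 TPM. Anln, the anillin gene, had 37.7 and 33.1 TPM. Kif20a had 60.8 and 59.1 TPM, above Kif20b by 2.18 ± 0.36, but 29.3% of its exon bases overlap Cdc23 on the opposite strand. Cdc23 had 105 and 126 TPM, and whether the counting used strand is not given in the sources used here.

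The remaining genes act on chromosomes or on transcription. Top2a (ENSMUSG00000020914, chr11:98992943-99024189, minus strand), the topoisomerase that untangles sister chromatids, had 339.7 and 316 TPM. Mki67 (ENSMUSG00000031004, chr7:135689784-135716361, minus strand), the coat protein of mitotic chromosomes, had 320.2 and 282 TPM. The ranges of these most abundant members overlapped. Top2a exceeded its paralogue Top2b, which non-dividing cells also use, by 3.16 ± 0.45 on the log2 scale, and by 2.06 over coding transcripts. Foxm1, a transcription factor of the same late cell cycle genes, had 53.96 and 59.51 TPM.

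**Figure D3:**
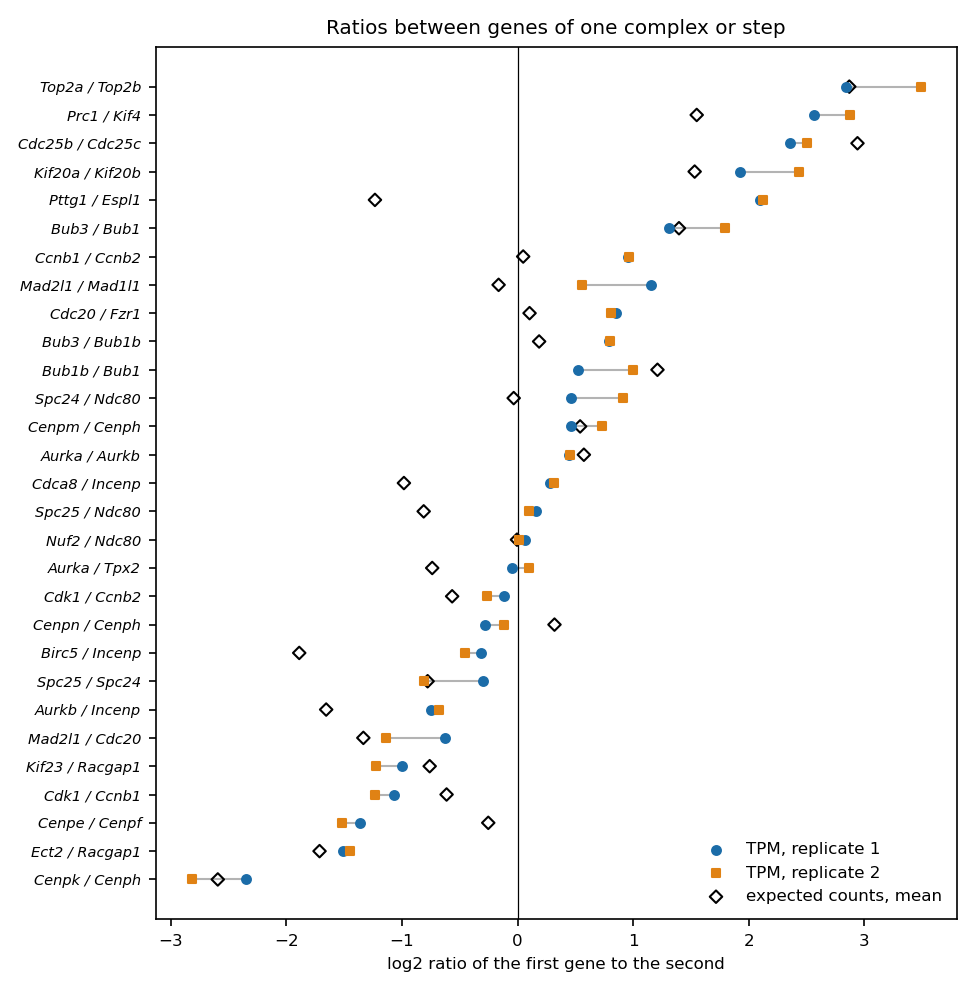
Log2 ratio of the first to the second gene in 29 pairs of 1 complex, paralogue set or step, with TPM ratios as circles (replicate 1) and squares (replicate 2) and the mean ratio of expected counts as open diamonds. The first gene was higher in both libraries in 17 of 29 pairs by TPM and in 11 by expected counts, and the diamonds of Pttg1 / Espl1 and Cdca8 / Incenp lie on the other side of 0 from the points.

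Gene levels depend on how reads were divided among transcripts. For 15 of the 45 genes a single transcript is listed, among them Incenp, Plk1, Bub3, Ndc80 and Mki67. In 22 genes the leading transcript took 90% or more of its gene's TPM, in replicates 1 and 2 alike. These 22 include the 15 with a single listed transcript, whose share is 100% by construction. The same share over all genes was not counted. In 5 it held 50% or less in at least 1 library, namely Pttg1, Cenpa, Prc1, Ect2 and Top2a. In Cenpa the leading transcript was annotated as subject to nonsense-mediated decay and held 35.5% and 41.8%, and coding transcripts held 28.0% and 20.6%. In Ect2 a decay transcript of 687 bases likewise led with 38.6% and 44.7%, and coding transcripts held 39.8% and 18.4%. Decay transcripts were not counted as coding here or in any other value over coding transcripts.

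The leading transcript differed between the libraries in 3 genes, Bub1, Nuf2 and Top2a. Bub1 was led by the coding Bub1-201 in replicate 1 (54.1%) and by Bub1-202, which retains an intron, in replicate 2 (53.1%). Nuf2 switched between coding transcripts, with Nuf2-201 at 57.4% and 29.5% and Nuf2-202 at 34.8% and 56.8%. Top2a was led by the coding Top2a-201 (51.4%) in replicate 1 and by Top2a-207 (45.8%), an 803-base non-coding transcript, in replicate 2. In reads Top2a-201 was far ahead in both libraries, with 14527 and 10033 expected counts against 1671 and 1621. The leading transcript of Prc1 was the same in both libraries, the coding Prc1-203 of 724 bases, with 44.0% and 54.7%.

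The order of abundance therefore depended on the length used. By deposited TPM Top2a ranked 1 among the 45, but with all reads divided by the longest coding transcript it ranked 5 at 179 TPM, and Mki67 ranked 1 at 301 TPM. By the same measure Cenpf moved from rank 24 to 41, Birc5 from 10 to 20, Pttg1 from 6 to 15, Prc1 from 4 to 13 and Cdk1 from 16 to 25. Cdca8 and Incenp, at 233 and 230.2 TPM, came next after Mki67. Cenpk was last by both of these measures, but over coding transcripts Ect2 was last with 7.54 TPM and Cenpk came before it. Over coding transcripts the highest member of a role was Incenp rather than Cdca8 in the passenger complex, Cenpm rather than Cenpa at the inner kinetochore and Mki67 rather than Top2a, and the lowest NDC80 subunit was Spc25. The group's median was 54.5 TPM by the longest coding length and 54.97 TPM over coding transcripts alone.

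Replicates were compared by expected counts after TMM scaling, which corrects for library size and composition. All 45 genes had at least 10 counts in both libraries. Lower in replicate 2 were 28 of the 45 genes, against 50.6% of 9476 protein-coding genes, and 17 were higher, with a median log2 ratio of replicate 2 to replicate 1 of -0.08, beside -0.0035 over the same protein-coding genes. Cenpk, with 217 and 130 expected counts, was over 1.5-fold higher in replicate 1 (log2 ratio -0.59, 95% Clopper-Pearson counting interval -0.92 to -0.27). It was the only one of the 45, while 3.04% of protein-coding genes passed this fold in the same direction. None of the 45 was over 1.5-fold higher in replicate 2, where 1.0% of protein-coding genes were. These intervals cover counting error only.

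The genes lowest in replicate 2 after Cenpk were Spc25 (-0.58), Kif20b (-0.54), Bub1 (-0.50), Nuf2 (-0.45) and Ndc80 (-0.41), none of them past 1.5-fold. All 5 had a GC content under 46%, where protein-coding genes were also lower in replicate 2, with medians of -0.30 under 42% and -0.18 from 42 to 46%. Highest in replicate 2 were Aurkb (0.22), Foxm1 (0.20) and Pttg1 (0.16). The counting interval lay below 0 for 22 genes, above 0 for 12 and across 0 for 11, while over protein-coding genes it lay below 0 for 22.6% and above 0 for 19.8%. Intervals narrow with depth, so the share was also taken over genes with 1000 or more counts summed over both libraries. Among 43 such members 21 lay below 0 and 12 above, and among all 5254 such protein-coding genes 26.5% lay below and 31.3% above. The SD of the same ratio over protein-coding genes with 200 or more counts was 0.20.

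The ratio moved with base composition. Over the 45 genes its correlation with the GC content of the leading transcript was 0.81 (Pearson) and 0.80 (Spearman). This is a description across genes, which share both libraries and are not independent. Over 9385 protein-coding genes the Spearman value was 0.47. Genes under 42% GC had a median log2 ratio of -0.30 over all 752 such genes, and the 6 members among them ranged from -0.59 to -0.21 with a median of -0.52. At 54 to 58% GC the median was 0.09 over 2020 genes, and the 7 members ranged from 0.01 to 0.20. When the median of genes of like GC was taken off, the members' median was -0.01, with 26 of 45 below 0. The GC content of the whole group had a median of 48.1%, against 50.9% over protein-coding genes.

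**Figure D4:**
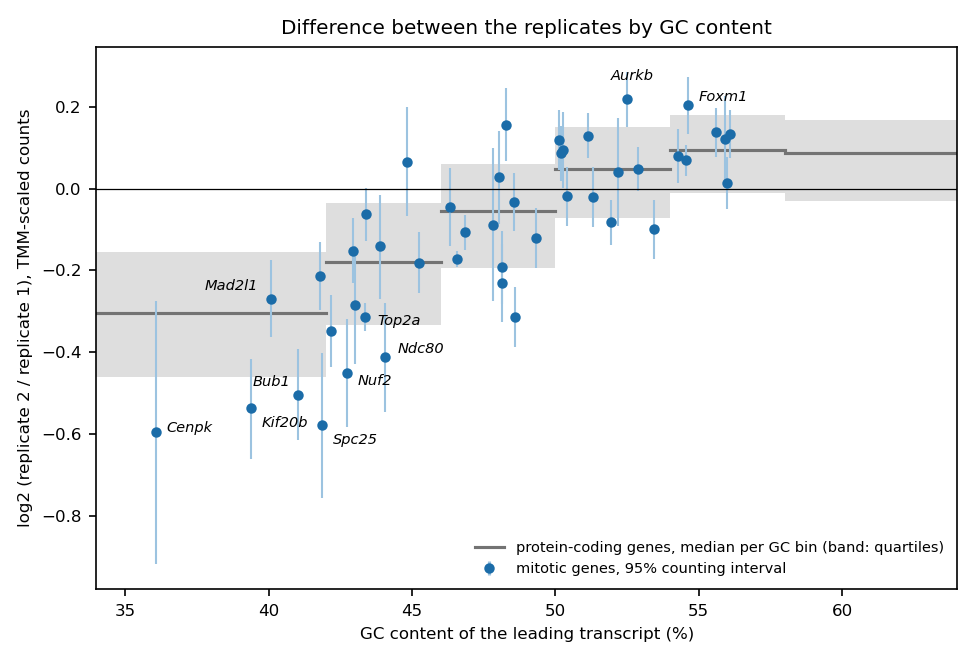
Log2 ratio of replicate 2 to replicate 1 after TMM scaling against the GC content of the leading transcript in percent; points are the 45 mitotic genes with 95% counting intervals, grey lines and bands are medians and quartiles of protein-coding genes in GC bins. Points climb from Cenpk, Kif20b and Spc25 at low GC to Foxm1 at high GC, in the same direction as the grey medians.

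The level itself also ran with sequence features. Across the 45 genes mean TPM had a Spearman correlation of 0.54 with GC content and of -0.28 with transcript length. TPM is itself divided by transcript length, so the second value is partly built into the measure. Neither correlation was taken over all protein-coding genes. The uniqueness of the sequence was high in most of the group, since 34 of 45 genes had 95% or more of their 36-base stretches in no other gene. It was under 90% in 6, which were Kif20a, Cdc20, Plk1 (83.9%, shared with Plk-ps1), Kif4 (84.7%, Pdzd11), Cdc25c (87.1%, Gm3550) and Prc1 (88.5%, Rccd1). The levels of these genes are uncertain, by an amount that this share does not measure. The named partners of Kif4, Cdc25c and Prc1 overlap them on the opposite strand, as Cdc23 overlaps Kif20a. Whether the counting used strand is not known.

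Other genes of the same machinery were detected almost throughout. Of 18 genes of the anaphase-promoting complex, its E2 enzymes and its regulators all 18 were detected, with a median of 74.96 TPM. Its E2 enzymes were the most abundant, Ube2s with 1051 and 1135 TPM and Ube2c with 605 and 598 TPM, and Anapc10 was the lowest with 1.93 and 1.36 TPM. Of other entry regulators 11 of 11 were detected, with a median of 90.8 TPM, from Mastl (6.88 and 4.46 TPM) to the CDK-binding gene Cks1b (297 and 324 TPM). Other checkpoint genes (10 of 10 detected) had a median of 22.6 TPM, from Trip13 (6.37 and 5.30 TPM) to Zwilch (58.2 and 53.3 TPM), below the 66.1 TPM of the 5 checkpoint genes above.

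Other kinetochore and centromere genes were detected in 25 of 25 cases with a median of 22.2 TPM, from Cenpp (7.25 and 4.56 TPM) to Pmf1 (248.7 and 273.6 TPM). Condensin, which compacts chromosomes, had 8 of 8 subunits detected with a median of 45.4 TPM, from Ncapg2 (18.9 and 17.7 TPM) to Ncapd2 (624 and 744 TPM). Cohesin holds sister chromatids together, and the 11 genes of its subunits and regulators were all detected with a median of 25.5 TPM. They ran from Pds5b (6.44 and 5.47 TPM) to Rad21 (137 and 131 TPM), and 11 of 11 were lower in replicate 2, against 50.6% of protein-coding genes. These 11 genes had a median GC content of 42.4%.

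Among other kinesins and spindle genes 25 of 26 were detected, with a median of 38.6 TPM. The exception was Cep55, a gene of the final cut between daughter cells, with 0.77 and 0.61 TPM from 33 and 23 expected counts. Kif22 was the highest of that list with 179.8 and 185 TPM. Genes of the MuvB complexes, E2F factors and NF-Y, some of which bind the elements printed above, were all detected (14 of 14, median 49.1 TPM), from E2f5 (2.22 and 2.19 TPM) to Lin37 (174 and 179 TPM). Replication licensing genes, which act before and during S phase, were detected in 17 of 17 cases with a median of 152 TPM, from Orc1 (24.9 and 25.2 TPM) to Mcm3 (408 and 394 TPM).

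Of 9 paralogues of members 3 were detected, Cdk2, Top2b and Mad2l2, a share near the 41.2% of all protein-coding genes. Plk3 had 0.69 and 0.75 TPM. Aurkc, Plk2, Plk5, Ccnb3 and Cdc20b were listed at 0 counts in both libraries, which allows up to 3 counts each, or 0.147 and 0.162 CPM. Of 14 genes specific to meiosis, 2 were detected, Rec8 with 17.4 and 19.3 TPM and Hormad2 with 2.53 and 1.67 TPM, 9 were at 0 in both libraries, and the others, Sycp1 (0.79 and 0.40 TPM), Sycp2 and Dmc1, were under 1 TPM. The extremes of several related lists also rest on transcripts not annotated as protein-coding. Over coding transcripts Ncapd2 had 123 TPM in place of 684 and remained the highest condensin gene. Zwilch had 10.1 TPM, below Mad1l1 with 44.0 TPM, and Lin37 had 56.9 TPM, below Tfdp1 with 148 TPM. The lowest genes then were Anapc4 (1.21 TPM), Cenpl (2.71 TPM), Ncapg (15.1 TPM), Lin9 (0.69 TPM) and Gins2 (6.38 TPM) in their lists. These comparisons between lists are descriptions of levels, with no test.

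**Figure D5:**
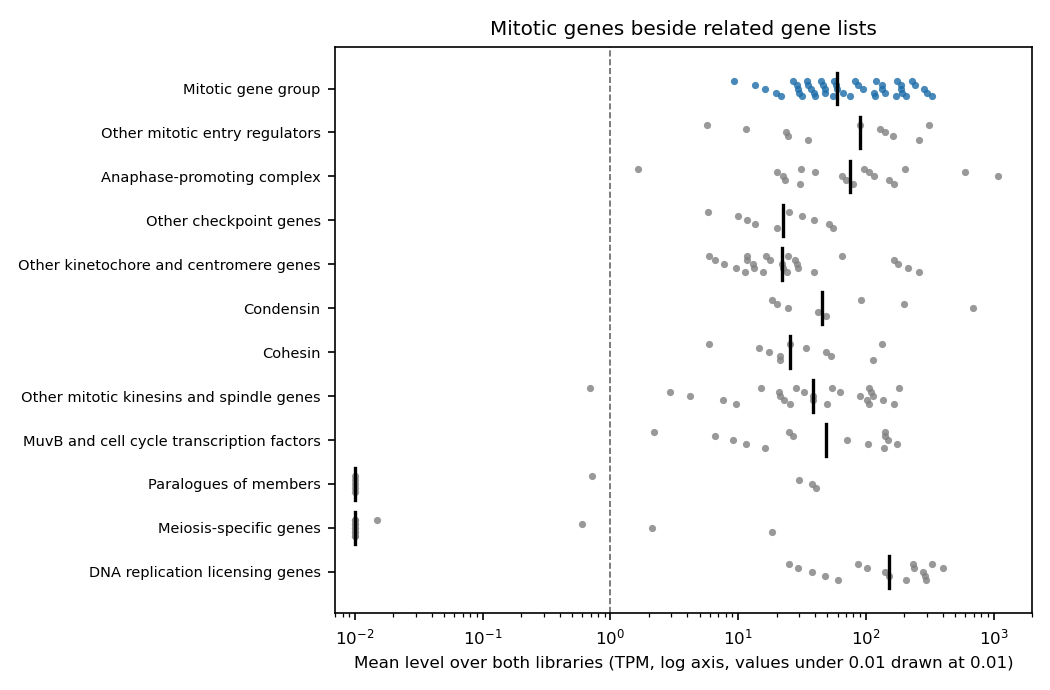
Mean TPM over both libraries on a log axis for the 45 mitotic genes (blue) and 11 related gene lists (grey), with 1 point a gene, black bars at list medians and a dashed line at 1 TPM; values under 0.01 are drawn at 0.01. The mitotic genes all lie to the right of the dashed line, while most paralogues and meiosis-specific genes lie to its left.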

How the data were processed

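Polyadenylated RNA of 2 libraries was analysed. Per the deposited file manifests, reads were mapped to mm10 with GENCODE M4; for aligner, quantifier and strand setting, a name or version is not given in the sources used here. The deposited tables hold, by their headers, expected counts, TPM and each transcript's percent of its gene's TPM. Symbols, positions and transcript classes came from GENCODE M21 (42462 identifiers matched, with 99.8% of counts), and promoters from RefSeq. The members and lists were chosen with earlier results of these data known. Replicate ratios used rounded expected counts and TMM scaling from edgeR 4.0.16 in R 4.3.3, with DESeq2 1.42.0 size factors as an alternative. The ratios were tested on simulated counts with known folds and counting noise only. That simulation held no trend with GC content, so it does not bear on the one between these libraries. No p-value is given, since an exact sign test over 2 libraries cannot go below 0.5. Depth was 20412826 and 18564086 expected counts. Named genes were the highest and lowest of each role list, all subunits of the passenger, checkpoint and NDC80 complexes, genes with divided transcripts, replicates over 1.5-fold apart or under 10 TPM, and the genes of 29 pairs. In related lists they were the highest and the lowest, and genes under 1 TPM were counted. Further members were named to account for each, after their values were seen, as were Ube2c, genes named in the paralogue and meiosis lists, and extremes over coding transcripts.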

Additional observations from a re-analysis of the deposited data

How the results depend on the processing

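Detection of all 45 members held in each of 6 alternatives, the count at 100 TPM lay between 13 and 18, the CHR count was 27 to 30, and the median replicate ratio stayed below 0 in all 5 alternatives. The median member level was 56.4 TPM with posterior-mean TPM, 54.97 TPM over coding transcripts and 54.5 TPM by longest coding length, an alternative chosen after seeing the data, as was the GC correction. Members over 1.5-fold apart numbered 2 by total expected counts (Cenpk and Spc25) and 0 by TPM with 1 added. By expected counts the first gene was higher in 11 of 29 pairs. Directions turned with expected counts for Aurka/Tpx2 (-0.74), Cdca8/Incenp (-0.98), Mad2l1/Mad1l1 (-0.16), Pttg1/Espl1 (-1.23), Nuf2/Ndc80 (-0.0055), Spc24/Ndc80 (-0.034), Spc25/Ndc80 (-0.81) and Cenpn/Cenph (0.32). They turned over coding transcripts for Cdk1/Ccnb1 (0.54), Ccnb1/Ccnb2 (-0.92), Cdca8/Incenp (-0.25) and Spc25/Ndc80 (-0.047). By longest coding length they turned for Ccnb1/Ccnb2 (-0.66), Nuf2/Ndc80 (-0.14), Spc25/Ndc80 (-0.27) and Cenpe/Cenpf (0.26). Leaving out a replicate, Aurka/Tpx2 ranged from -0.045 to 0.094. Between measures, these turns come by construction from the lengths or transcripts each uses, and between the libraries the cause was not tested. No paired analysis was possible because there is 1 group. Depth limits the lowest members most, since Cenpk rests on 217 and 130 counts.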
